A study of Homo sapiens with 13 samples.

Results

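Intermediate filament genes were examined in HEK293 cells, a human line derived from embryonic kidney, whose mRNA was made by wild-type or slow RNA polymerase II (Pol II). The 10 genes were KRT8, KRT10, KRT18, KRT19, VIM, NEFL, NEFM, INA, LMNA and LMNB1, out of 14575 genes with at least 1 read. They were chosen by name as filament genes of this line, and KRT19 was selected on its measured level, which was lower in R749H cells, so that level is described without a test. In all, 9 of the 10 genes had reads, at 123 of the 211765 3’ ends of the tables. NEFL had no row in the tables used here.

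The cells were HEK293 Flp-in T-REx lines that carried an integrated pcDNA5 plasmid for α-amanitin resistant (Amr) Rpb1, the largest subunit of Pol II, marked Avitag in the titles and B10 in the source names, either wild-type (WT, 5 libraries) or with the slow R749H substitution (4 libraries). In both groups, doxycycline at 2 µg/ml switched on the plasmid (for 24 hr according to the labels, while the methods of the study give a shorter time), and α-amanitin at 2.5 µg/ml for 42 hr then blocked the endogenous polymerase. The labels name a single engineered line for each group, so any difference between the lines other than the substitution cannot be told apart from it. The 3’ READS method sequences the last bases before the poly(A) tail, and each read marks the 3’ end of an mRNA molecule. Levels of different genes were therefore set side by side without a length correction. No read used here shows the Rpb1 allele, so the labels were not tested in that way.

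Intermediate filament proteins share a central coiled-coil rod, through which they pair and then assemble into ropes that give cells and nuclei mechanical strength. Keratins pair as a type I protein (KRT10, KRT18, KRT19) with a type II protein (KRT8), vimentin (VIM) is the type III protein of mesenchymal and cultured cells, and the neurofilament subunits NEFL and NEFM and α-internexin (INA) are type IV proteins of neurons. Lamins line the inside of the nuclear envelope, where LMNA gives lamin A and lamin C by the use of different last exons and LMNB1 gives lamin B1.

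Reads within 5 kb of a stop codon numbered 2479851 to 10135014 per WT library and 3863468 to 6475987 per R749H library. R749H replicate 3 stood apart, with 41033 3’ end positions, of which 6.60% rested on 1 read. The other libraries ranged from 30.045% to 36.19%. Changes in gene level and ratio are therefore also given without R749H replicate 3 where they move. Levels are in RPM, the reads of a gene per 1e6 reads of the library, after scaling by TMM, a method that centres the libraries on their bulk of genes. With TMM the median log2 change of all tested genes was -0.07, and with the authors’ scaling alone it was -0.405. Changes are therefore given relative to TMM.

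The sequences below are the 30 nt of GRCh37 that end at the leading 3’ ends of KRT18, KRT8, KRT19 and the 2 larger VIM sites and at the lamin A end of LMNA, read 5’ to 3’ on the strand of the gene, in order to show where the poly(A) signal stands in each. Capitals mark AATAAA, the most frequent poly(A) signal hexamer. ATTAAA, the next most frequent, was also searched.
KRT18: agcaggaggccAATAAAaagttcagagttc
KRT8: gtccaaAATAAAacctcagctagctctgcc
KRT19: acctgccAATAAAaatttatggtccaaggg
VIM proximal: cagcaagAATAAAaaagaaatccatatctt
VIM distal: ttctgcttcAATAAAtctttggaaaaactc
LMNA, lamin A: cctccccaaatcaatacactagttgtttct

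These windows lie at chr12:53346655-53346684 (+) for KRT18, chr12:53290977-53291006 (-) for KRT8 and chr17:39679870-39679899 (-) for KRT19. Those of VIM are chr10:17279304-17279333 (+) and chr10:17279563-17279592 (+), and that of LMNA is chr1:156109842-156109871 (+). The GENCODE annotation places each of these 6 ends in a 3’ UTR of its gene. AATAAA was found in the last 30 nt before 65.4% of the 7876 leading ends searched on the gene’s strand, ATTAAA without AATAAA before 16.3%, and neither before 18.4%. The lamin A end, a minor LMNA end with 385 reads over all libraries, is the one of the 6 with neither hexamer in its window. The hexamer of the other 5 starts 19 to 24 bases from the end, counting the last base as 1. The window of the leading LMNA end, with 11541 reads, is not shown, and the lamin A window says nothing of that end. The leading LMNA window holds ATTAAA, which starts 23 bases from the end by the same count.

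KRT18 was the most abundant gene of the set in both lines. KRT18 and KRT8 form the keratin pair of simple epithelia. KRT18 had 323, 526, 343, 471 and 570.1 RPM in WT replicates 1 to 5 and 544, 527, 432 and 842 RPM in R749H replicates 1 to 4. KRT8 had 43.8, 53.9, 46.5, 52.8 and 58.6 RPM in WT and 55.3, 61.4, 67.6 and 100.5 RPM in R749H. The ranges of the groups overlapped for both genes, and R749H replicate 4 was the highest library for both.

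Neither keratin passed the test, which was limma with Benjamini-Hochberg adjustment over 9494 genes. The log2 change was 0.39 (SE 0.22, adjusted p = 0.205) for KRT18 and 0.45 (SE 0.20, adjusted p = 0.107) for KRT8. Without R749H replicate 4 the changes were 0.21 for KRT18 and 0.28 for KRT8, and with the authors’ scaling alone they were 0.04 and 0.10. Without R749H replicate 3 they were larger, 0.54 for KRT18 (limma adjusted p = 0.0904) and 0.48 for KRT8 (limma adjusted p = 0.121). A p above the threshold does not show that the lines had the same levels. Both genes lie in a stretch of chromosome 12 where 47 other tested genes within 2 Mb of KRT8 had a median log2 change of -0.36, 34 of them below 0. The median over all 518 tested genes of chromosome 12 was -0.16. KRT8 and KRT18 have processed pseudogenes, and how the authors’ mapping divided their reads was not tested.

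The ratio of the partners overlapped between the lines. The log2 ratio of KRT8 to KRT18 was -2.88, -3.28, -2.88, -3.15 and -3.28 in WT and -3.30, -3.10, -2.67 and -3.06 in R749H. The group means were -3.10 ± 0.21 (SD, n = 5) and -3.03 ± 0.26 (SD, n = 4), a difference of 0.06 (two-sided exact permutation test, p = 0.714, where 0.0159 is the smallest p possible). Without R749H replicate 3 the difference was -0.06.

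KRT19, a type I keratin that lacks most of the usual tail and marks simple epithelia and ducts, was the gene selected for its lower level. It had 50.5, 66.4, 85.1, 68.2 and 71.9 RPM in WT and 13.0, 6.03, 14.9 and 9.68 RPM in R749H. Every R749H library was below every WT library, and the means of 68.4 ± 12.4 (SD, n = 5) and 10.9 ± 3.91 (SD, n = 4) RPM correspond to a 6.49-fold lower fitted level in R749H. These are the values that chose the gene. In reads, WT libraries had 158 or more and R749H libraries 22 to 75, and in a bulk library fewer cells with KRT19 and less KRT19 mRNA per cell cannot be told apart. Around KRT19, 64 tested genes within 2 Mb of KRT19 had a median log2 change of -0.38, 47 of them below 0. The median was -0.44 over all 612 tested genes of chromosome 17 and -0.07 over all tested genes. The part of the region in the KRT19 level was not tested.

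The KRT19 reads that were left in R749H stood at the same 3’ end as in WT. The leading end, 125 nt after the stop codon, held 73.4% ± 3.48 (SD, n = 5) of KRT19 reads in WT and 78.0% ± 6.19 (SD, n = 4) in R749H. The mean end position was 124.8 to 125.0 nt after the stop codon in WT and 124.9 to 125.1 nt in R749H. The ranges overlapped for both measures, which are given without a test.

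KRT10, a keratin of differentiated epidermis, was a low gene. It had 23.0, 8.98, 10.4, 9.47 and 5.07 RPM in WT and 5.39, 7.40, 1.07 and 11.3 RPM in R749H. WT replicate 1 was the highest library, and R749H replicate 3, with 4 reads, the lowest. The log2 change of -1.08 (SE 0.53) did not pass the limma test (adjusted p = 0.151), and it was -0.36 without R749H replicate 3. With the authors’ scaling alone KRT10 was called at -1.42 (limma adjusted p = 0.0472).

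**Figure D1:**
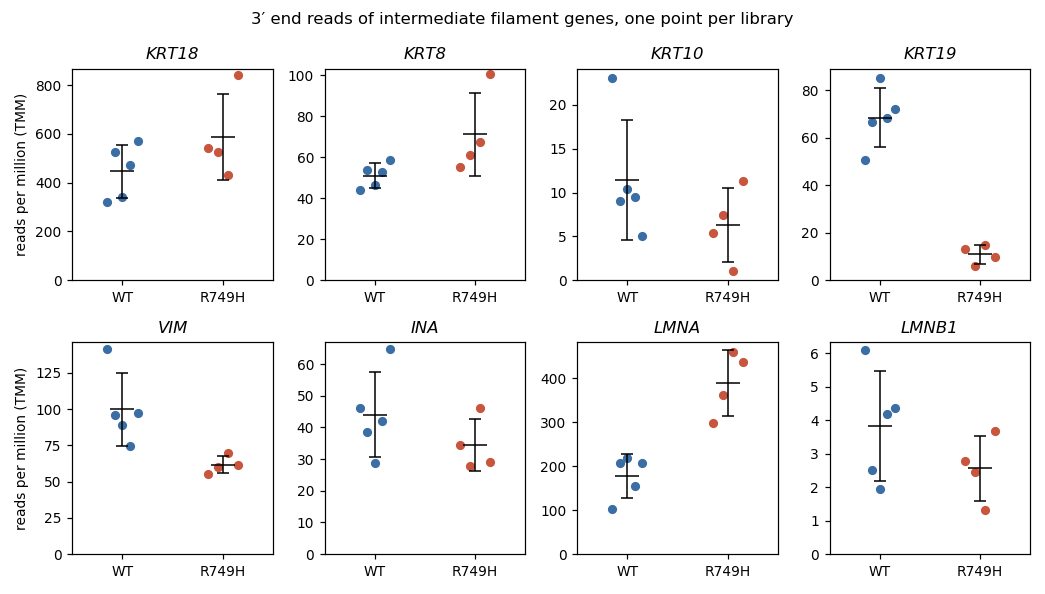
Level of each gene in RPM after TMM (vertical axis, from 0) in WT and R749H libraries. Each point is a library, and the black bars give the mean and SD over 5 WT and 4 R749H libraries. LMNA lies higher and VIM and KRT19 lie lower in all R749H libraries, and the groups overlap for the other 5 genes.

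VIM was lower in R749H. It had 142, 96.2, 89.2, 74.8 and 97.6 RPM in WT and 55.3, 60.3, 70.0 and 61.8 RPM in R749H. The groups did not overlap, with WT replicate 1 well above the others. The means were 99.9 ± 25.04 (SD, n = 5) and 61.8 ± 6.11 (SD, n = 4) RPM, a 1.58-fold lower fitted level, and the log2 change was -0.66 (SE 0.19, limma adjusted p = 0.0194). Without R749H replicate 2 the call was lost (-0.63, limma adjusted p = 0.0627), and without R749H replicate 3 it held (-0.70, limma adjusted p = 0.0262). The call also held, with a smaller change, without WT replicate 1 (-0.53, limma adjusted p = 0.0278). With the authors’ scaling alone the change was -1.01 (limma adjusted p = 0.00195). Around VIM, 5 tested genes within 2 Mb had a median log2 change of 0.30, against 0.025 over the 359 tested genes of chromosome 10.

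The VIM mRNA ended at separate places. Reads formed a proximal site, whose leading end is 63 nt after the stop codon, a distal site led by the end at 322 nt, and a small site at 314 nt, where a site joins ends no more than 4 nt apart. The proximal site held 14.4%, 28.9%, 21.0%, 34.8% and 22.9% of VIM reads in WT and 28.3%, 15.9%, 19.8% and 19.8% in R749H. The distal site held 73.8%, 63.6%, 72.6%, 59.5% and 72.2% in WT and 63.2%, 75.5%, 74.1% and 73.9% in R749H. Shares ranged as widely within a line as between lines. The change in log2 odds was -0.25 (SE 0.35, limma adjusted p = 0.795) for the proximal site and 0.22 (SE 0.27, limma adjusted p = 0.762) for the distal site.

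In RPM, the proximal VIM ends were at 23.1 ± 3.77 (SD, n = 5) in WT and 12.8 ± 2.57 (SD, n = 4) in R749H, without overlap. The distal ends were at 69.1 ± 22.1 (SD, n = 5) and 44.5 ± 7.03 (SD, n = 4), with overlap. Both means were lower in R749H, and the shares given above did not pass at either site. The authors kept only reads with more As than the genome has at that place. Directly after the VIM ends the genome has 3 As at the proximal end, 5 at the small site and 0 at the distal end. Of the 7876 leading ends, 17.5% have 3 or more. The part of this filter in the VIM shares was not tested.

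INA, a filament protein of neurons, was at 28.7 to 64.9 RPM in WT and 27.9 to 46.1 RPM in R749H. The ranges overlapped, and the log2 change of -0.33 (SE 0.23) did not pass (limma adjusted p = 0.316). Without WT replicate 5, the highest library, the change was -0.19, and without R749H replicate 3 it was -0.46 (limma adjusted p = 0.188). Its main site, led by the end 1675 nt after the stop codon, held 93.3% ± 1.08 (SD, n = 5) of reads in WT and 92.3% ± 3.39 (SD, n = 4) in R749H (limma adjusted p = 0.914). The log2 odds of this site changed by -0.11, and by -0.54 without R749H replicate 3 (limma adjusted p = 0.399). With the authors’ scaling alone INA was called at -0.68 (limma adjusted p = 0.0496). NEFM, the medium neurofilament subunit, had 1 read in WT replicate 1, 1 in WT replicate 4 and 0 in the other 7 libraries. A count of 0 allows up to 3 reads, so that no difference in NEFM was detectable at this depth. With no NEFL row, no ratio of NEFM to NEFL was computed, and of the 3 neuronal filament genes chosen as marks of the line only INA could be tested.

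LMNA rose in R749H. It had 102, 207, 219, 155 and 208 RPM in WT and 297, 363, 460.0 and 437 RPM in R749H. Every R749H library was above every WT library, and WT replicate 1 was the lowest. The means were 178 ± 49.5 (SD, n = 5) and 389 ± 74.0 (SD, n = 4) RPM, a 2.24-fold higher fitted level in R749H, and the log2 change was 1.16 (SE 0.22, limma adjusted p = 0.00162). Without R749H replicate 3 it was 1.099 (limma adjusted p = 0.00372), and without WT replicate 1 it was 0.97 (limma adjusted p = 0.00145). With the authors’ scaling alone the LMNA change was 0.82 (limma adjusted p = 0.00539). Around LMNA, 58 tested genes within 2 Mb had a median log2 change of 0.03, against -0.17 over the 953 tested genes of chromosome 1.

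LMNA reads ended mostly after the lamin C stop codon, which the genome reads first. Summed over libraries, 11779 reads lay between the lamin C stop codon and the later LMNA stop codon used by the authors, and 421 lay after the later one. Ends after the later stop codon are called lamin A ends here, and whether it is the stop codon of lamin A itself was not tested. The leading lamin C end, 101 nt after its stop codon, alone held 94.5% ± 0.70 (SD, n = 5) of LMNA reads in WT. Over 7874 genes the leading end held a median of 58.3% of reads, and the share of LMNA, 94.6% over all libraries, was at or above that of 94.3% of them.

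Both lamin ends were higher in R749H. Lamin C ends had 96.3, 200.0, 213, 151 and 200.2 RPM in WT and 286, 348, 444 and 421 RPM in R749H. Lamin A ends had 5.44, 6.68, 6.03, 4.28 and 8.04 RPM in WT and 11.0, 14.2, 16.2 and 15.2 RPM in R749H. Neither pair of groups overlapped, and the R749H means were 2.18-fold and 2.32-fold higher. As a share, ends before the later LMNA stop codon made up 96.4% ± 1.08 (SD, n = 5) of LMNA reads in WT and 96.3% ± 0.20 (SD, n = 4) in R749H. The difference of -0.066 percentage points was within the spread of the WT libraries (two-sided exact permutation test, p = 0.905).

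**Figure D2:**
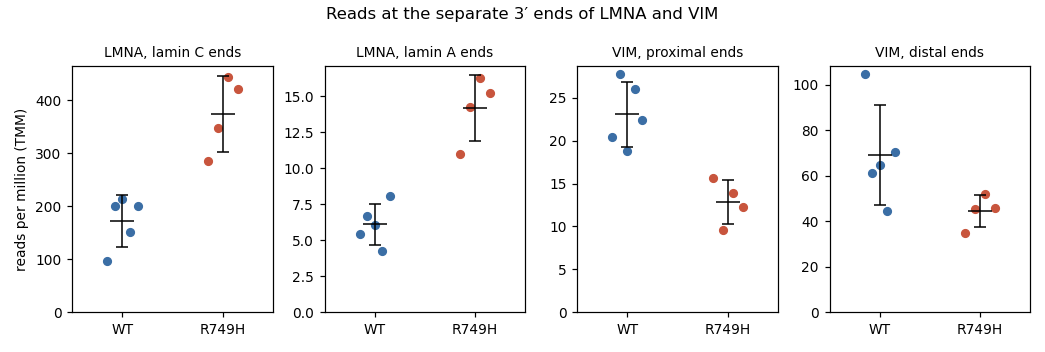
Reads in RPM after TMM (vertical axes, from 0) at LMNA ends of lamin C and lamin A and at VIM proximal and distal ends. Each point is a library, and black bars give the mean and SD over 5 WT and 4 R749H libraries. Both kinds of LMNA end are higher in every R749H library, VIM proximal ends are lower in every R749H library, and VIM distal ends overlap.

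LMNB1 was near the lower limit of what could be measured. It had 12 to 46 reads per library in WT and 5 to 16 in R749H, or 3.82 ± 1.64 (SD, n = 5) and 2.57 ± 0.97 (SD, n = 4) RPM. The groups overlapped, and the log2 change of -0.53 (SE 0.44) did not pass (limma adjusted p = 0.396). It was -0.23 without R749H replicate 3, -0.34 without WT replicate 1 and -0.87 with the authors’ scaling alone, and it passed in none of these fits. All 5 reads of R749H replicate 3 lay 980 nt after the stop codon, where the other libraries together had 2. The most used end over all libraries, at 748 nt, had 46 reads.

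The log2 ratio of LMNA to LMNB1 was 4.03, 6.31, 6.75, 5.19 and 5.55 in WT and 6.70, 7.12, 8.30 and 6.84 in R749H. Only WT replicate 3 lay within the R749H range. The means were 5.57 ± 1.06 (SD, n = 5) and 7.24 ± 0.73 (SD, n = 4), a difference of 1.67 (two-sided exact permutation test, p = 0.0317, or 0.0635 after Benjamini-Hochberg adjustment over the 2 ratios). The ratio did not pass after adjustment, and the low reads of LMNB1 widen its spread. Leaving out R749H replicate 3 gave a difference of 1.32 (two-sided exact permutation test, p = 0.0714).

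**Figure D3:**
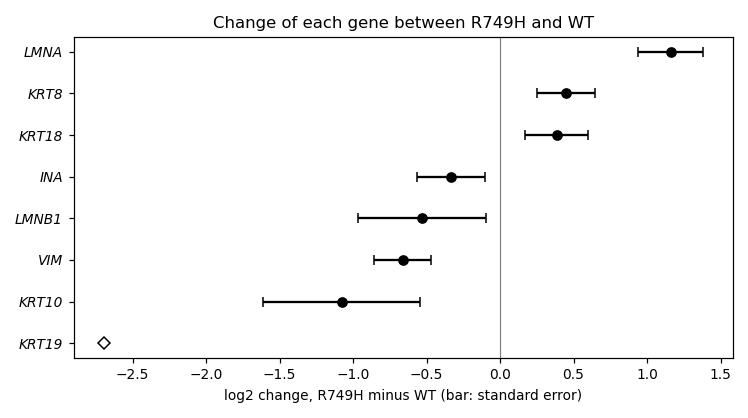
Log2 change of each gene, R749H minus WT (horizontal axis), with the standard error of the limma fit as bars. The open diamond is KRT19, which was selected for its level and is drawn without an error. LMNA lies at 1.16, VIM at -0.66 and KRT19 at -2.70.

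Leaving KRT19 aside, 1 of 7 tested genes rose, LMNA, and 1 of 7 fell, VIM. Of all 9494 tested genes, 10.9% were called higher and 12.9% lower, 23.9% in either direction. The groups did not overlap for these 2 of the 7 genes and for 19.9% of all tested genes. These shares give no ground to set the filament genes apart from all genes. With the authors’ scaling alone 4.54% of all tested genes were called higher and 27.7% lower (431 and 2628 genes), and of the 7 genes LMNA was called higher and VIM, KRT10 and INA lower.

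The order of the levels differed in part. In WT it was KRT18, LMNA, VIM, KRT19, KRT8, INA, KRT10, LMNB1 and NEFM. The ranges of neighbours overlapped from LMNA through INA and between KRT10 and LMNB1, and they were apart between KRT18 and LMNA, INA and KRT10, and LMNB1 and NEFM. In R749H it was KRT18, LMNA, KRT8, VIM, INA, KRT19, KRT10, LMNB1 and NEFM. Here KRT18 and LMNA overlapped, as did KRT8 and VIM, KRT19 and KRT10, and KRT10 and LMNB1, while the other neighbours were apart. The place of KRT19 follows from the levels it was selected on.

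The genes differed in how their ends spread. KRT18 ended 58 nt after the stop codon in 91.1% ± 1.29 (SD, n = 5) of WT reads and 89.8% ± 1.72 (SD, n = 4) of R749H reads. KRT8 spread over 10 ends with at least 10 reads each, and its leading end at 235 nt held 49.0% of WT and 47.6% of R749H reads. INA had 5 ends with at least 10 reads each, and its leading end held 48.8% of WT and 45.4% of R749H reads. Over all libraries the leading end held less of the reads than the median gene in KRT8, INA and VIM and more in KRT10, KRT18, KRT19 and LMNA.

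**Figure D4:**
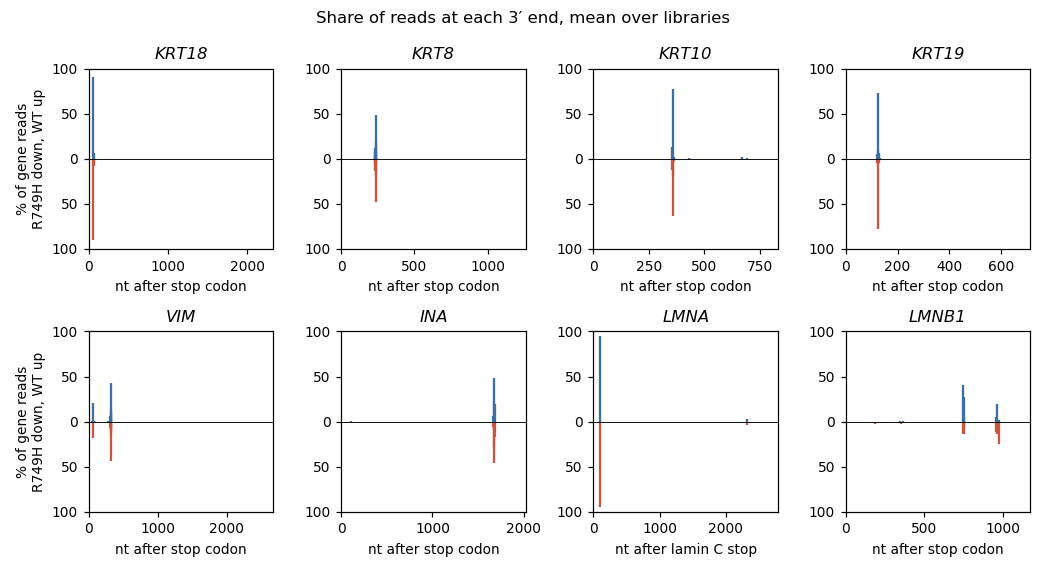
Share of a gene’s reads (vertical axis, percent, WT drawn up and R749H drawn down, means of libraries) at each 3’ end by its distance in nt after the stop codon (horizontal axis; for LMNA, after the lamin C stop codon). KRT18, KRT19 and LMNA have a single main end, VIM has ends near 63 and 322 nt, and WT and R749H share the main end of each gene other than LMNB1, which has 5 to 46 reads per library.

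No 3’ end site of these genes passed the test. Of 11124 sites tested over all genes, 23 were called (0.207%), and 1418 had an unadjusted p below 0.05. The 5 tested sites, of VIM and INA, had limma adjusted p-values of 0.762 to 0.972. The mean position of reads within the leading site also gave no call among these genes. Of 6814 genes tested, 2 were called (0.0294%), and 430 had an unadjusted p below 0.05. Among the 6 filament genes other than KRT19, mean positions differed by -0.08 nt (KRT8) to 0.45 nt (KRT10), with limma adjusted p-values of 0.8289 to 0.998. For LMNA, where reads are most numerous after KRT18, the difference was 0.002 nt with a 95% interval of -0.045 to 0.049 nt. For VIM it was 0.001 nt (-0.076 to 0.078 nt), for KRT18 0.070 nt (-0.068 to 0.207 nt), and for INA 0.143 nt (-0.097 to 0.383 nt). These 4 intervals exclude a shift of the mean by 1 nt in either direction. The study describes graded changes of ratio between neighbouring ends, which a shift of the mean far below 1 nt can hold. With most KRT18 and LMNA reads at a single end, these intervals therefore do not decide on such changes.

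Other genes of the filament system were taken from lists, whose counts stand against 10.9% of all tested genes called higher and 12.9% called lower. Of 61 other intermediate filament genes, 18 had a read and 4 were tested. BFSP1, the lens filament protein filensin, rose from 2.94 to 6.12 RPM in WT to 7.84 to 13.4 RPM in R749H (log2 change 1.44, limma adjusted p = 0.00265). KRT75, a hair follicle keratin, fell from a mean of 10.1 to 1.599 RPM (-2.75, limma adjusted p = 0.00361). Its groups overlapped, as WT replicate 1 was below R749H replicate 4, and KRT75 was named after its values were seen. LMNB2, which gives lamin B2, was the most abundant of this list and did not pass (172 and 236 RPM, log2 change 0.44, limma adjusted p = 0.113). PRPH, the type III filament protein peripherin, did not pass either, and both were named after their values were seen.

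Of 14 tested genes that anchor or link filaments, 0 rose and 4 fell. Their median log2 change was -0.59 against -0.07 over all tested genes. With the authors’ scaling alone 0 rose and 6 fell, where 4.54% of all tested genes were called higher and 27.7% lower. MACF1, a giant linker of cytoskeletal fibres, fell from 29.9 ± 4.39 (SD, n = 5) to 15.5 ± 3.48 (SD, n = 4) RPM (-0.96, limma adjusted p = 0.00400). JUP, the desmosome plaque protein plakoglobin, was just past the threshold (-0.55, limma adjusted p = 0.0499). The desmosomal cadherins DSC2 (-0.98) and DSC3 (-1.09) also fell, with groups that overlapped, and were named after their values were seen. PLEC, which gives plectin, the main linker of filaments to other structures, was at 32.4 RPM in WT and 44.2 RPM in R749H and did not pass (limma adjusted p = 0.0784, named after its values were seen). Of 18 tested genes that bind or process lamins, 0 rose and 3 fell, with a median of -0.21. With the authors’ scaling alone 0 rose and 6 fell, or 33.3%, near the 27.7% of all tested genes. LEMD2, a protein of the inner nuclear membrane, fell from 65.4 ± 13.8 (SD, n = 5) to 33.2 ± 6.67 (SD, n = 4) RPM (-0.97, limma adjusted p = 0.00472). TMPO, which gives the lamin binding LAP2 proteins, fell by 0.85 on the log2 scale (limma adjusted p = 0.0180). TOR1A, an ATPase of the nuclear envelope, fell by 0.84 (limma adjusted p = 0.0282), with groups that overlapped, and was named after its value was seen.

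Marker lists of cell types were set beside these genes, and their few tested members are again read against 10.9% of all tested genes called higher and 12.9% called lower. Of 6 tested epithelial markers, 3 fell (CLDN7, ESRP1 and SPINT2) and 0 rose, and the summed level of the list was 94.8 to 120.0 RPM in WT and 49.5 to 96.3 RPM in R749H. All 6 were called lower with the authors’ scaling alone, under which 27.7% of all tested genes were called lower. CLDN7, a tight junction protein, had 1.92 to 3.13 RPM in WT and a single read over the R749H libraries. Of 5 tested mesenchymal markers, SNAI1 and FBN1 rose and FN1 and CDH2 fell, and the summed list was 30.8 to 41.4 RPM in WT and 33.0 to 62.6 RPM in R749H. FBN1 was not called with the authors’ scaling alone. SNAI1, a repressor of epithelial genes, had 0 to 0.87 RPM in WT and 5.30 to 27.2 RPM in R749H, the highest in R749H replicate 3 (limma adjusted p = 0.00109). FN1, which gives fibronectin, fell by 1.06 on the log2 scale (limma adjusted p = 0.0108). ESRP1, SPINT2, FBN1 and CDH2 were named after their values were seen, and for each of them the groups overlapped.

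Of 4 tested neuronal markers, TUBB3, a β-tubulin of neurons, rose from 34.8 ± 3.81 (SD, n = 5) to 140.2 ± 28.1 (SD, n = 4) RPM (1.99, limma adjusted p = 4.02e-06). It sits beside INA, which did not pass, and NEFM, with 2 reads in all. STMN2 and DCX, also of this list, had no row. SNAP25, SYP and RBFOX3, the other tested markers, were not called. The summed neuronal list was 38.7 to 54.9 RPM in WT and 127 to 195 RPM in R749H, most of it TUBB3, and without TUBB3, a sum added after seeing the data, the other 9 genes summed to 5.76 to 13.99 RPM in WT and 18.95 to 20.3 RPM in R749H. No adrenal cortex marker could be tested, with sums of 0 to 1.04 RPM, and the 1 kidney tubule and nephron marker tested was not called, with sums of 10.3 to 19.2 RPM in WT and 4.84 to 10.6 RPM in R749H. HEK293 lines are kept as a kidney line, and the tubule markers AQP1, SLC22A6 and UMOD had no row in the tables used here. The part of a change in cell state in the filament genes was not tested.

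The pattern of KRT19 over the 9 libraries was compared with that of 4005 genes with a mean of at least 100 reads. The genes most like it were NXN (Pearson r = 0.986), SEPTIN1 (0.986) and HTRA1 (0.980). These values describe 9 libraries in which the difference between the lines that selected KRT19 is the main variation, and 114 genes had r above 0.9. NXN, a thioredoxin-like protein, had 48.6 to 58.4 RPM in WT and 21.6 to 30.3 RPM in R749H. SEPTIN1, a GTP-binding filament protein, had 24.3 to 43.5 RPM in WT and 2.74 to 6.22 RPM in R749H, and HTRA1, a secreted protease, had 61.7 to 87.2 RPM in WT and 10.4 to 20.3 RPM in R749H. Within the 5 WT libraries r was 0.33, 0.65 and 0.80 for NXN, SEPTIN1 and HTRA1.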

How the data were processed

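3’ READS data of 5 WT and 4 R749H libraries were used, grouped by their labels. The 4 eNETseq libraries and 2 tables of pooled replicates were not used here. The authors trimmed the random bases and the Ts at the start of each read, mapped the rest to hg19 (GRCh37) with bowtie (Bowtie2 2.3.2 in the submitters’ processing notes), kept reads with As that the genome does not hold, and linked each end to the CCDS stop codon before it, at most 5 kb away. The deposited signal values count reads at a 3’ end and were brought by the authors to 7 M per library. Division by the smallest step gave whole reads for 100% of values within 0.1 of a read. An end is placed on the last base that is not A, so its position is open by the As that follow in the genome. The 95% intervals of mean positions come from the spread between libraries. The floor of 3 reads covers counting error only, and reads carry no molecular identifiers.

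The genes and lists were chosen with earlier results of these data known. Reads were summed per gene and tested with limma 3.58.1 (trend) on log2 RPM with edgeR 4.0.16 TMM factors in R 4.3.3, after the edgeR filter on low counts, with all 9 libraries. As the values are scaled, limma was the main test, and edgeR quasi-likelihood and DESeq2 1.42.0 on the recovered reads were alternatives. Shares of sites were tested as log2 odds with 0.5 reads added, for genes with a mean of at least 20 reads and sites with at least 5% of the reads. Mean end positions were tested by limma for leading sites, and ratios by an exact permutation test. P-values were adjusted by Benjamini-Hochberg over all features, with a threshold of 0.05. The scripts were tested on simulated data. Sequences came from GRCh37 and annotation from GENCODE lifted to it, in which all members with reads matched by stop codon. Named were all members, in each list up to 4 called genes with the largest change and no overlap, and the 3 genes most like KRT19. Genes outside this rule are marked where they are named. Alternatives were RLE factors, the authors’ scaling, other filters, prior counts and site spacing, a replicate block and each library left out.

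Samples with the same replicate number did not deviate together (correlations -0.07, 0.051, 0.016 and -0.049). The main fits did not pair them, and whether samples of the same number were prepared together was not tested. Replicates differed by more than sampling noise (chi-square per degree of freedom of at least 3.76). Where replicates came from separate cultures is not given beyond the study’s term biological replicate, so p-values measure the spread between these libraries.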

Additional observations from a re-analysis of the deposited data

Results flagged for a closer look

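Of 64 groups of 4 or 5 library values checked, 5 had a library far from the others, where chance flags about 1 in 20. NEFM had 0.320 RPM in WT replicate 1, which is 1 read. The share of VIM reads at the small site 314 nt after the stop codon was 10.8% in WT replicate 1. The share at the distal VIM site was 63.2% in R749H replicate 1. The mean KRT8 end position was 235.6 nt in R749H replicate 1. KRT10 had 0% of its 4 reads at its leading end in R749H replicate 3, the library that also had few positions with a single read.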

How the results depend on the processing

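LMNA was called higher under every alternative run, and VIM lower under all but 1, the fit without R749H replicate 2. Besides KRT19, 4 genes were called with the authors’ scaling alone (KRT10 and INA added) and, over fits that left out a library, 1 to 2. KRT19 had a log2 change of -3.04 with the authors’ scaling. Site calls over all genes were 7 with 0.1 reads added, 46 with a mean of at least 50 reads, and 5 to 89 when a library was left out. Calls of mean position were 1 with 8 nt spacing, 1 with the replicate block and 1 in each fit without a library. With the replicate block, run on replicates 1 to 4, KRT10 was called (-1.33, adjusted p = 0.0474), the ratio of LMNA to LMNB1 differed by 1.67 (exact p = 0.125), the VIM site at 314 nt changed by -0.022 and the LMNA position by -0.0013 nt, and no other call of these genes changed. In a fit of replicates 1 to 4 without the block, chosen after seeing the data, KRT10 was not called (adjusted p = 0.0817). When a library was left out, small differences changed sign: log2 odds of -0.36 to 0.29 (INA end at 1666 nt), -0.54 to 0.11 (INA, 1675 nt) and -0.078 to 0.29 (VIM, 314 nt), positions of -0.15 to 0.020 nt (KRT8), -0.0099 to 0.011 nt (LMNA) and -0.012 to 0.022 nt (VIM), the KRT8 to KRT18 ratio from -0.058 to 0.15, and the lamin share from -0.505 to 0.143 points. The LMNA to LMNB1 difference was 1.29 to 1.97, with the exact p above 0.05 in 7 of these fits. The causes were not tested. No end was listed for more than 1 gene, so that alternative gave no value. Depth limits KRT10, LMNB1 and NEFM.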
